A study of Mus musculus with 32 samples.

Results

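The genes described here encode the synaptic vesicle and its release machinery in the nerve terminal. They are 37 presynaptic genes chosen by name, from 55415 features counted in mouse striatum. Of these, 36 passed a filter on low counts and were tested among 10679 genes. The exception was Unc13b, a vesicle priming factor of the Munc13 family, with 1 to 14 counts per library and group means from 6.00 to 8.33 CPM. CPM here are counts per gene scaled to the library's TMM-normalised size.

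The study was designed around an antisense oligonucleotide, AON12.1, aimed per the title at the caspase-6 cleavage site of huntingtin in a mouse model of Huntington disease. Striatal RNA of 32 mice was read from the 3′ end of polyadenylated transcripts, 8 libraries in each of 4 groups. YAC128 mice bear full-length human HTT with a lengthened CAG repeat on a yeast artificial chromosome, on a B6 background, and keep their mouse Htt. They were given artificial cerebrospinal fluid (aCSF) alone, or in it either AON12.1 or a scrambled sequence, and wild-type littermates (WT) were given aCSF alone. The oligonucleotide groups are called AON12.1 and scrambled below, and both consist of YAC128 mice. Every mouse was given 3 injections of 10 µL into the lateral ventricle, starting near 6 months of age and repeated 2 and 4 weeks after the surgery, with 500 µg of oligonucleotide where one was used. Striatum was taken at 12 months, after an MRI scan. Each library carries its own animal number.

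Transmitter release follows a cycle. Vesicles dock at the active zone on a scaffold of large proteins, are primed by assembly of SNARE proteins, fuse when a synaptotagmin binds calcium, and are retrieved by endocytosis. The messenger RNAs of these proteins lie mainly in neuronal cell bodies, so striatal RNA reports chiefly the neurons that reside there, most of them spiny projection neurons, and less the cortical and dopaminergic axons that end there.

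Libraries held 658934 to 1419313 gene counts. Projection neuron markers summed to 3838 to 12800 CPM. The no-feature share, the percentage of all counts assigned to no gene, averaged 19.5% in WT, 25.6% with YAC128 aCSF, 23.9% with AON12.1 and 22.1% with the scrambled sequence. Some libraries stood apart. The share was 30.2% in WT replicate 1 and at most 19.2% in other WT mice. Cortical excitatory neuron markers summed to 1317 CPM in scrambled replicate 5 (next 537.1) and to 624.3 in AON12.1 replicate 1 (next 323.3). Choroid plexus genes were high in YAC128 aCSF replicate 4 and oligodendrocyte genes in AON12.1 replicate 2. Oligodendrocyte genes were low in YAC128 aCSF replicate 2 (4366 CPM, next 5898). Dopamine neuron markers were high in WT replicate 4 (120.6, next 36.1) and scrambled replicate 1 (57.5, next 29.2). Pan-neuronal markers were high in YAC128 aCSF replicate 8 (3489, next 3208).

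As a share of gene counts, the 37 genes made up 1.52 to 1.80% in WT, 1.44 to 1.80% with YAC128 aCSF, 1.37 to 1.69% with AON12.1 and 1.53 to 1.95% with the scrambled sequence, and these ranges overlapped. A median of 23 of 36 genes lay above their own all-library median in WT mice and 11.5 in YAC128 aCSF mice. It was 15.5 for AON12.1 and 18.5 for scrambled mice. YAC128 aCSF replicate 8 went against its group with 33 genes above, and had the lowest no-feature share of that group, 17.1%. YAC128 aCSF replicates 3 and 6 had 7 each.

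**Figure D1:**
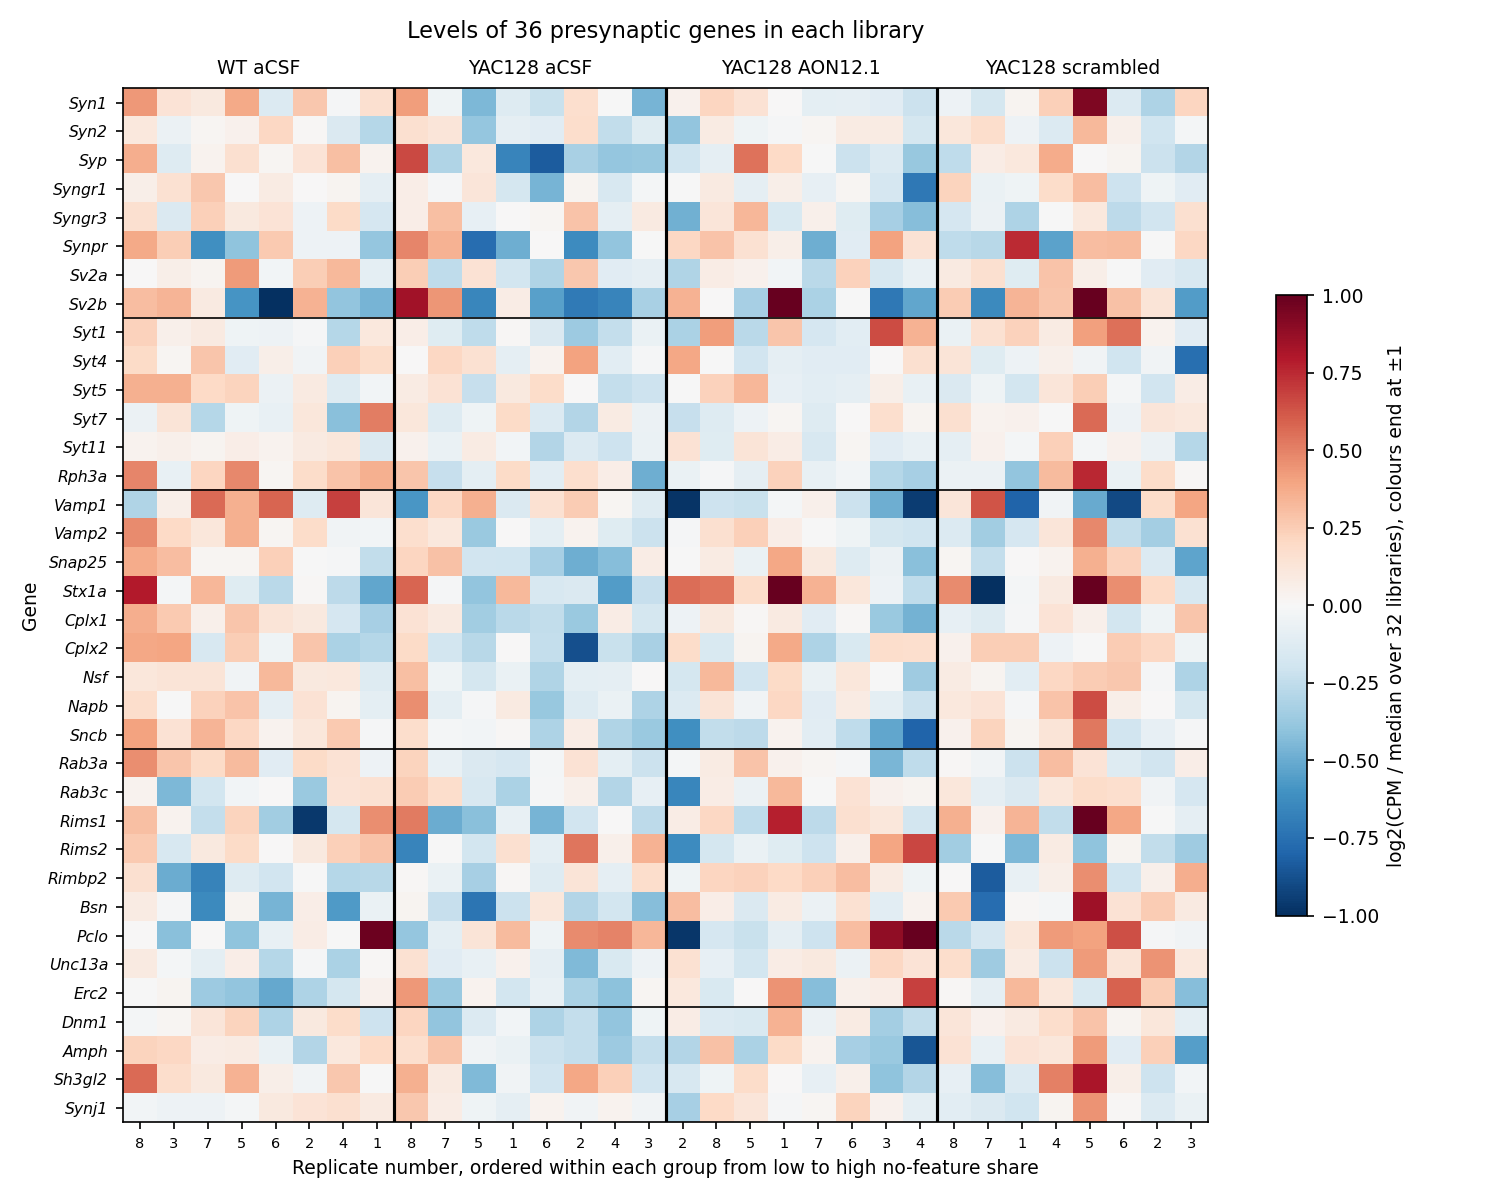
Level of each of 36 genes (rows, by role) in each of 32 libraries (columns, by group and from low to high no-feature share), as log2 of CPM over the gene's median in all libraries; red is above and blue below. YAC128 aCSF replicate 8 and scrambled replicate 5 are red in most rows, with 33 and 30 of 36 genes above their median.

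Sncb on chromosome 13 was the only gene of the set called between groups. It encodes beta-synuclein, a presynaptic protein, and was listed with the SNARE and fusion genes. Its level was 580.5, 661.1 and 775.9 CPM (lowest, median and highest of 8) in WT and 453.5, 577.0 and 661.7 in YAC128 aCSF mice. It was 336.1, 490.2 and 599.8 in AON12.1 and 513.9, 600.6 and 843.6 in scrambled mice. AON12.1 mice were lowest, and only their replicate 1 exceeded the lowest WT mouse. Among the 4 groups Sncb differed (adjusted p = 0.0223, edgeR's quasi-likelihood F test, Benjamini-Hochberg). That was 1 of 36 members, while 0.777% of all tested genes were called. At an unadjusted p under 0.05 there were 7 members, against 14.9% of all genes: Sncb, Vamp1, Bsn, Rimbp2, Cplx2, Syt1 and Rph3a.

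Sncb was 0.51 ± 0.11 lower on the log2 scale (estimate ± SE) in AON12.1 than in WT mice (adjusted p = 0.00783 by edgeR). The ratio was 0.700, with a 95% interval of 0.604 to 0.811. These mice differ in both genotype and oligonucleotide, and this comparison cannot tell genotype and oligonucleotide apart. All 8 AON12.1 mice lay below the WT median. Across all genes 0.562% were called in this comparison and 0.328% were called lower. In bulk tissue, fewer cells that express a gene and less RNA per cell cannot be told apart. Of 6 pan-neuronal markers 4 had lower estimates and 2 were called lower, with sums of 3214 to 4116 CPM in WT and 3134 to 3641 in AON12.1. The part of these markers in the lower level of Sncb was not tested.

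The call on Sncb held in 16 of 16 fits that left out 1 mouse. It held without WT replicate 1, YAC128 aCSF replicate 4, AON12.1 replicate 2 and scrambled replicate 5 together (-0.50, adjusted p = 0.0149), and when the share entered the fit as a covariate (-0.41, adjusted p = 0.0275). It was lost among mice with a share up to 25% (-0.44, adjusted p = 0.12; 7 WT and 5 AON12.1 mice). By the first digits of the animal numbers it was -0.32, adjusted p = 0.598 in numbers starting with 18 (3 WT, 2 AON12.1) and -0.60, adjusted p = 0.0383 in those starting with 19 (5 and 6). The lowest AON12.1 mice were replicates 4, 2 and 3, at 336.1, 381.9 and 409.5 CPM. Replicates 3 and 4 had the 2 highest no-feature shares of all, 33.3% and 33.7%, and replicate 2 was the one rich in oligodendrocyte genes. Without any 1 of these 3 the call over the 4 groups was lost.

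Against the scrambled oligonucleotide, Sncb was at -0.42 ± 0.11 in AON12.1 mice and missed the threshold (adjusted p = 0.136), with 8 of 8 below the scrambled median. DESeq2 called it (adjusted p = 0.0347). Without AON12.1 replicate 1 edgeR gave -0.48 (adjusted p = 0.0424). Without scrambled replicate 5, the highest of its group, it gave -0.35 (adjusted p = 0.433). Against YAC128 aCSF it was at -0.24 ± 0.11 (adjusted p = 0.368), and YAC128 aCSF against WT at -0.28 ± 0.10 (adjusted p = 0.277). In order of median level came WT, scrambled, YAC128 aCSF and AON12.1, and neighbours in that order did not pass the test.

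**Figure D2:**
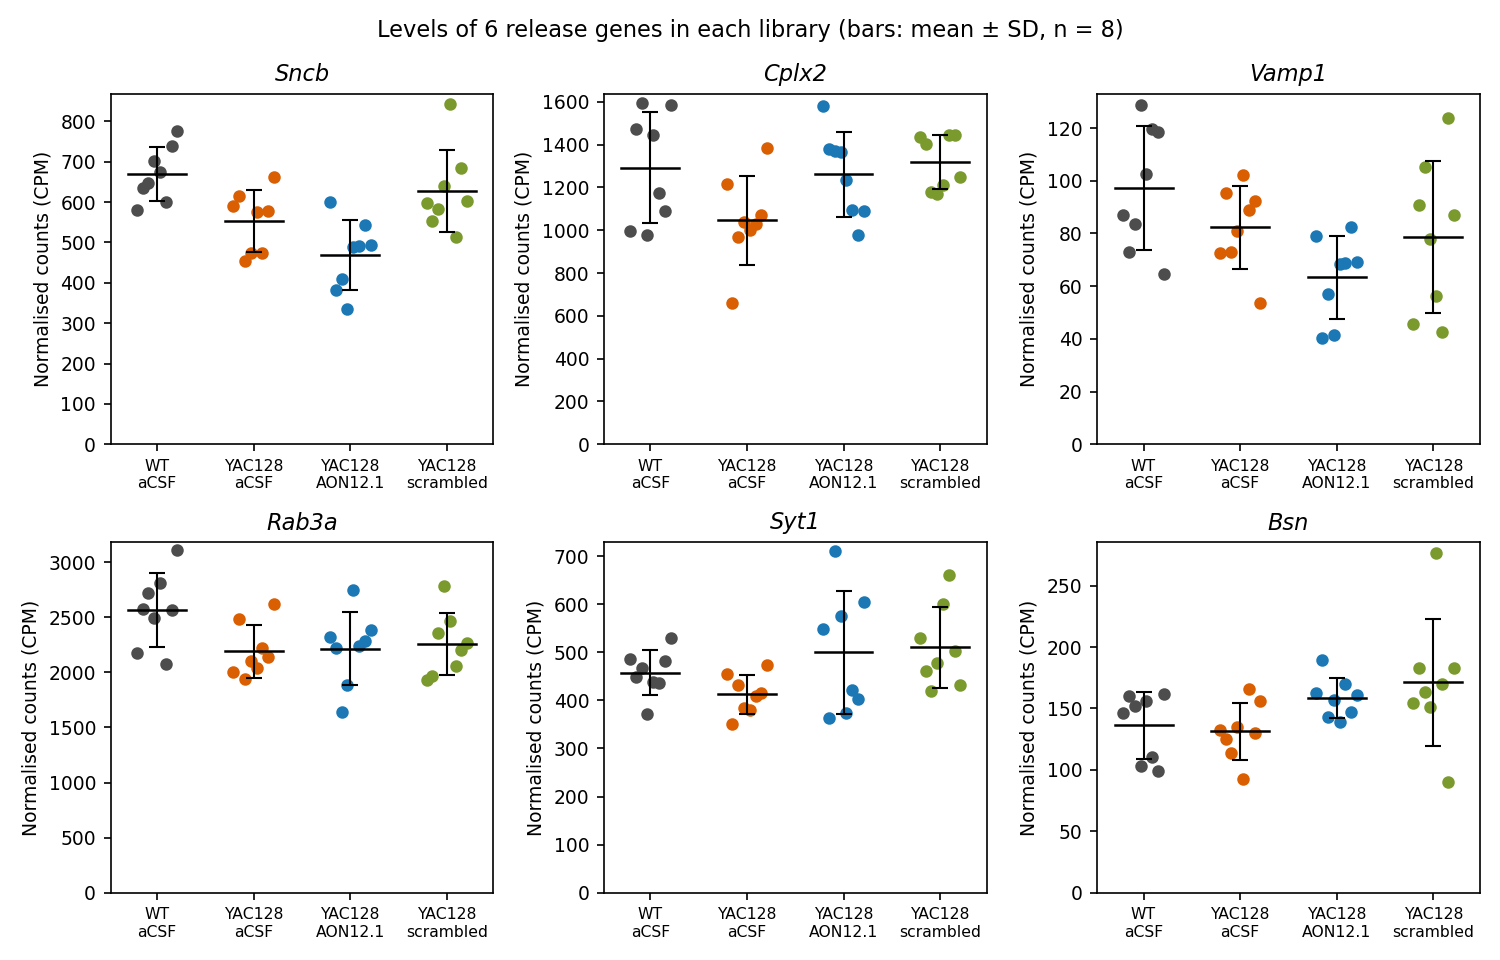
CPM of 6 genes in each library (points), with the mean and SD of each group of 8 (bars). Sncb in AON12.1 mice (336.1 to 599.8) lies mostly below WT (580.5 to 775.9); in the other 5 genes the groups overlap and no comparison was called.

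The promoter of Sncb is shown because this gene was called between groups. It covers 250 bases before to 50 after the RefSeq start, on the minus strand of GRCm38.p6 at chr13:54766546-54766845. Capitals mark the GC box GGGCGG on either strand.

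Sncb: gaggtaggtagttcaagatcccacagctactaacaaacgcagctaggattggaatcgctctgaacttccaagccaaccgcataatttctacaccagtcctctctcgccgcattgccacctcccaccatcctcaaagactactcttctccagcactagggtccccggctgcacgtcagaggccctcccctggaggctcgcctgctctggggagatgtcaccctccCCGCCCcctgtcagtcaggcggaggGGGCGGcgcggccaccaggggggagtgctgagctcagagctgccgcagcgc

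The genotype comparison sets YAC128 against WT, both given aCSF. Values of release genes lay mostly below WT, but edgeR and DESeq2 called 0 of 36 members, where edgeR called 0.0749% of all genes. Estimates were lower for 30 of 36 members, against 50.7% of all genes, with a median log2 fold change of -0.13 against -0.00. At an unadjusted p under 0.05, 7 members were lower and 0 higher, against 5.76% and 6.79% of all genes.

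By role, estimates were lower for 9 of 9 SNARE and fusion genes (median -0.22) and 4 of 4 endocytosis genes (-0.15). They were lower for 6 of 6 synaptotagmin and rabphilin genes (-0.13), headed calcium sensors in the figures. So were those for 6 of 8 vesicle membrane genes (-0.10) and 5 of 9 Rab3 and active zone genes (-0.02). Differences between the roles were not tested.

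Complexins bind the assembled SNARE complex and regulate fusion. Cplx2 had 977.3, 1309 and 1592 CPM in WT and 659.1, 1034 and 1385 in YAC128 aCSF, a log2 difference of -0.30 ± 0.12 (adjusted p = 0.290). The ranges overlapped, with 7 of 8 transgenic mice below the WT median. Cplx1 had 450.9, 612.2 and 728.0 in WT and 437.8, 489.6 and 626.9 in YAC128 aCSF (-0.23 ± 0.10, adjusted p = 0.352), and medians of 559.7 in AON12.1 and 556.4 in scrambled mice.

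Vamp2, the vesicle SNARE synaptobrevin 2, had 989.9, 1129 and 1408 CPM in WT and 785.6, 984.3 and 1141 in YAC128 aCSF (-0.22 ± 0.10, adjusted p = 0.368). Its medians were 1012 in AON12.1 and 916.6 in scrambled mice, and all groups overlapped. Its partners on the plasma membrane were Snap25 at -0.20 ± 0.12 and syntaxin 1A, Stx1a, at -0.06 ± 0.25. Nsf and Napb, which take spent SNARE complexes apart, were at -0.15 and -0.12, and Vamp1, synaptobrevin 1, at -0.25.

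Rab3a, a small GTPase of vesicle docking, had 2077, 2569 and 3108 CPM in WT and 1935, 2119 and 2620 in YAC128 aCSF (-0.23 ± 0.10, adjusted p = 0.329). Its medians were 2259 in AON12.1 and 2231 in scrambled mice. The Rab3 effector rabphilin, Rph3a, had 272.3, 341.7 and 401.3 in WT and 204.7, 283.9 and 348.2 in YAC128 aCSF (-0.27 ± 0.12, adjusted p = 0.358). For each gene 7 of 8 transgenic mice lay below the WT median and the ranges overlapped. Other genes of the active zone had estimates on both sides of 0, from -0.11 for Rims1, a RIM scaffold, through 0.04 for Rab3c to 0.19 for Rimbp2, a RIM-binding protein.

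Syp, the vesicle protein synaptophysin, had 344.6, 400.5 and 485.8 CPM in WT and 211.3, 295.3 and 595.0 in YAC128 aCSF (-0.31 ± 0.14, adjusted p = 0.368). Replicate 8 of the transgenic group exceeded every WT mouse, while 6 of 8 lay below the WT median. The medians in AON12.1 and scrambled mice were 348.5 and 380.8 for Syp and 272.8 and 282.4 for Rph3a. The synapsins, which cluster vesicles, were at -0.24 for Syn1 and -0.04 for Syn2. Other vesicle membrane genes were Syngr1 at -0.13, Syngr3 at 0.02, Synpr at -0.06, Sv2a at -0.15 and Sv2b at 0.06. Dnm1, the dynamin that cuts endocytic vesicles free, had 314.0, 405.1 and 453.3 CPM in WT and 295.9, 341.3 and 451.4 in YAC128 aCSF (-0.18 ± 0.10, adjusted p = 0.447), and Amph, Sh3gl2 and Synj1 were at -0.15, -0.14 and -0.01.

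Most lists of cell type markers moved beside these genes. Estimates were lower for 6 of 6 pan-neuronal, 14 of 15 projection neuron (2 called), 7 of 8 interneuron, 7 of 8 astrocyte, 5 of 7 oligodendrocyte and 6 of 6 microglia markers. Endothelial markers were split, 2 higher and 2 lower, and 2 of 2 choroid plexus markers tested were higher. Oligodendrocyte sums were 5840 to 7769 CPM in WT and 4366 to 6146 in YAC128 aCSF, with a median log2 difference of -0.20. The 4366 came from YAC128 aCSF replicate 2 alone, and the next value was 5898. Pan-neuronal sums were 3214 to 4116 CPM in WT and 3015 to 3489 in YAC128 aCSF, and projection neuron sums 5873 to 12800 and 4038 to 8072. The 3489 came from YAC128 aCSF replicate 8 alone, and the next value was 3208. Cortical sums were 145.8 to 529.5 and 94.5 to 610.0, with 4 of 6 tested markers lower. Their part in the members' values was not tested. When the share entered the fit as a covariate the members' median was -0.04 and 2 were lower at an unadjusted p under 0.05; with shares up to 25% (7 WT, 3 YAC128 aCSF) these were -0.03 and 1. Within animal numbers starting with 18 and 19 the medians were -0.13 and -0.10. The count of 7 was 12 without YAC128 aCSF replicate 8. It was 2 without WT replicate 5, WT replicate 8 or YAC128 aCSF replicate 3, 3 without YAC128 aCSF replicate 5 or 6, and 4 without YAC128 aCSF replicate 1. The count of 0 higher was 1 without WT replicate 8. Counts over all genes were not taken in these refits or in those below. Moves of the members' counts therefore cannot be set against all genes.

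**Figure D3:**
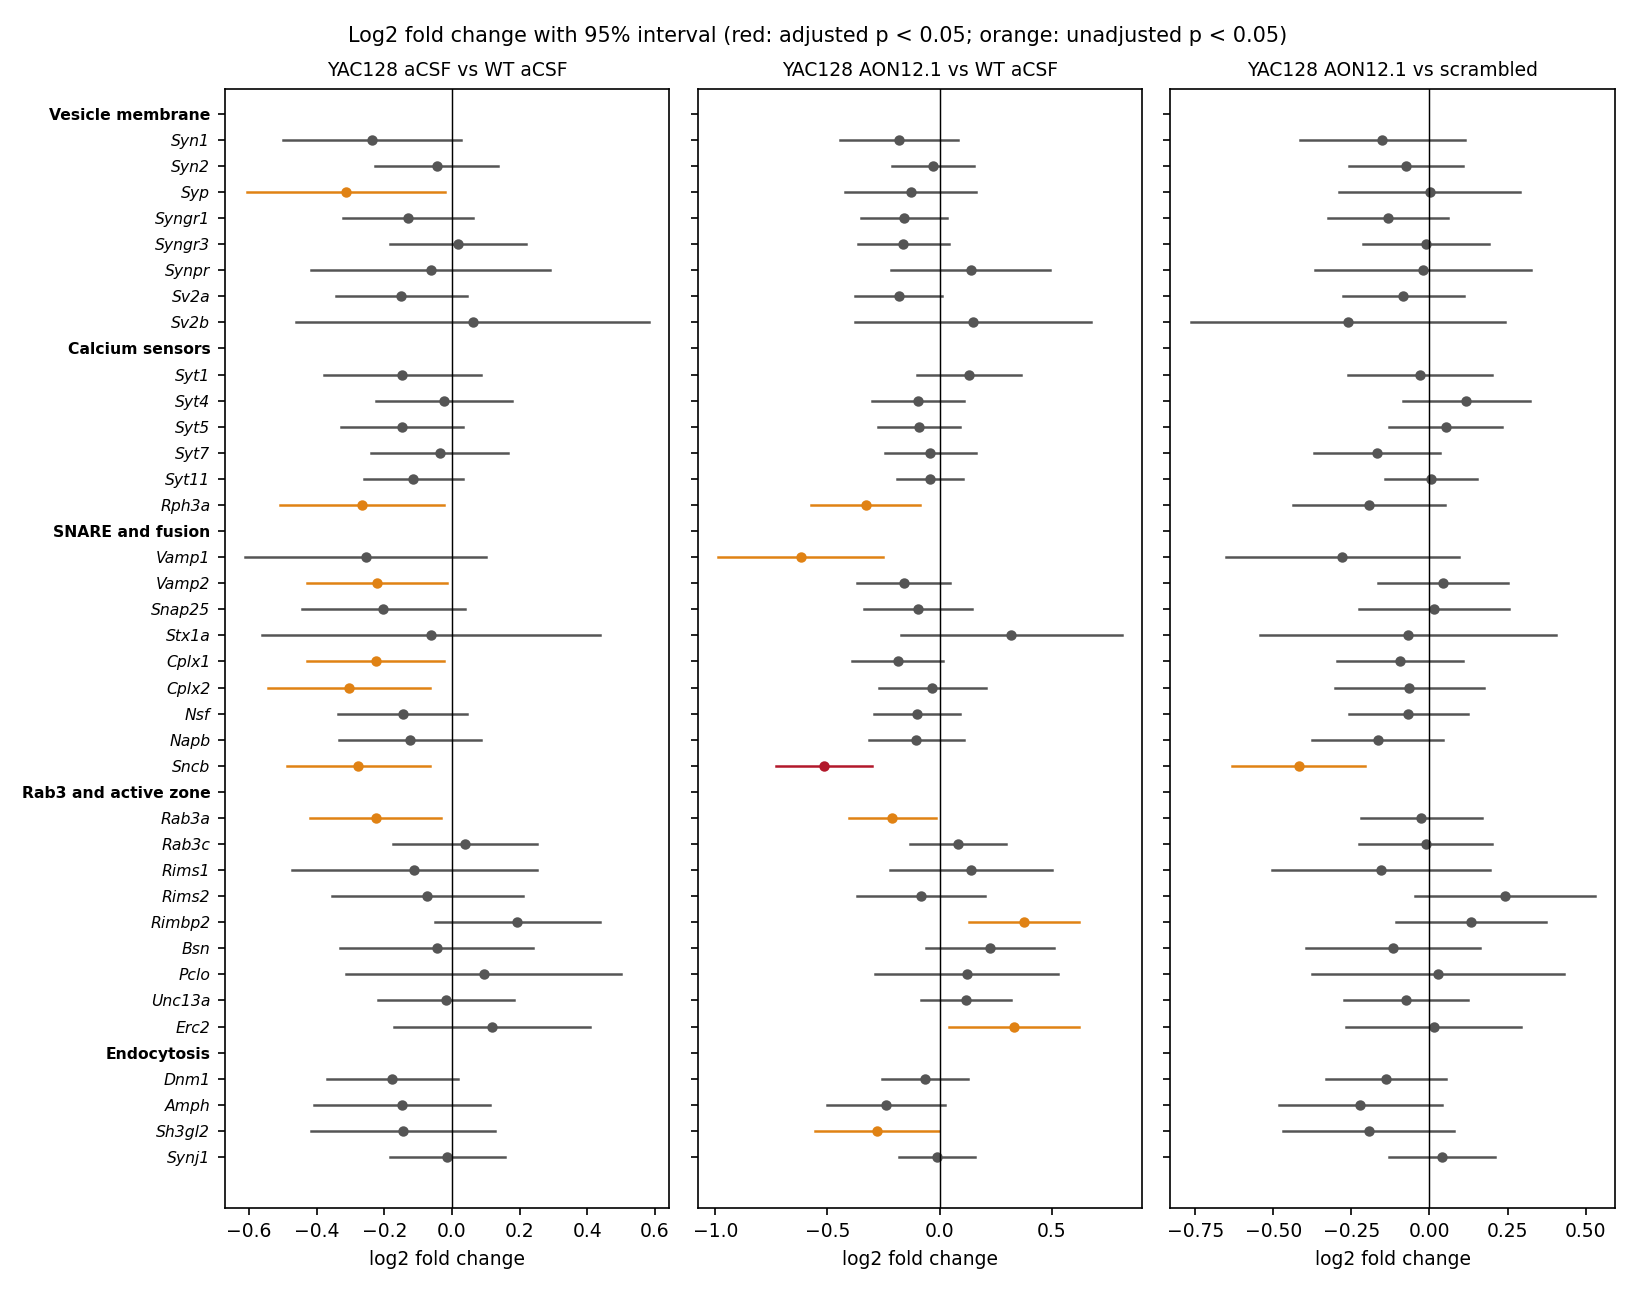
Log2 fold change with its 95% interval for each of 36 genes, by role, in 3 comparisons; red marks an adjusted p under 0.05 and orange an unadjusted p under 0.05. Sncb in AON12.1 against WT is the only red interval, and 9 of 9 SNARE and fusion genes lie left of 0 for genotype.

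AON12.1 against scrambled sets apart the oligonucleotide's sequence. Apart from Sncb, described above, no member had an unadjusted p under 0.05. EdgeR called 0 of 36, with 0.14% of all genes called, and 1 was lower and 0 higher at an unadjusted p under 0.05, against 3.86% and 3.39% of genes. Estimates were lower for 25 of 36 members, against 48.2% of genes, with a median of -0.07. Role medians ran from -0.17 for endocytosis to -0.01 for Rab3 and active zone genes. Cortical markers had lower estimates in 6 of 6, with sums of 92.7 to 624.3 CPM in AON12.1 and 184.8 to 1317 in scrambled mice. Projection neuron markers went the other way, with higher estimates in 15 of 15 (9 at an unadjusted p under 0.05, median 0.41) and sums of 6921 to 12790 CPM in AON12.1 and 3838 to 9104 in scrambled mice. Pan-neuronal markers had lower estimates in 4 of 6. The part of these markers in the members' values was not tested. Without scrambled replicate 5 the members' median was -0.01. The count of 1 lower was 3 without AON12.1 replicate 1 or scrambled replicate 3, and 2 without AON12.1 replicate 8 or scrambled replicate 1 or 6. The count of 0 higher was 1 without AON12.1 replicate 2. The 95% intervals reached -0.76 for Sv2b and 0.53 for Rims2.

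AON12.1 against aCSF, within YAC128 mice, gave no call by edgeR or DESeq2, with 0.309% of all genes called by edgeR. Of 36 members 11 had lower estimates, against 50% of genes, and the median was 0.04. At an unadjusted p under 0.05, 2 were higher and 1 lower, against 6.53% and 5.03% of genes. Syt1, the calcium sensor of fast release, had 351.5, 412.4 and 474.0 CPM in YAC128 aCSF and 362.5, 484.3 and 711.3 in AON12.1 mice (0.28 ± 0.11, adjusted p = 0.321). Its AON12.1 values spread widely, 5 of 8 above the aCSF median, and WT had 370.8, 458.1 and 529.5. Cplx2 had 978.8, 1300 and 1578 in AON12.1 mice (0.27 ± 0.12, adjusted p = 0.360). Projection neuron markers had higher estimates in 15 of 15 (12 at an unadjusted p under 0.05, median 0.53), with sums of 4038 to 8072 CPM in YAC128 aCSF and 6921 to 12790 in AON12.1 mice. Pan-neuronal markers were higher in 3 of 6, cortical in 4 of 6 and astrocyte in 4 of 8 (1 called). Their part in the members' values was not tested. The count of 2 higher was 6 without YAC128 aCSF replicate 8, and 1 without YAC128 aCSF replicate 2 or AON12.1 replicate 1, 3 or 8. The count of 1 lower was 0 without YAC128 aCSF replicate 2 or AON12.1 replicate 2, 3 or 4, and 2 without YAC128 aCSF replicate 1 or 3 or AON12.1 replicate 1, 5, 6, 7 or 8. With 1 mouse left out the median ran from 0.0053 to 0.0807. This comparison, the genotype comparison and the next one share the YAC128 aCSF libraries.

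Scrambled against aCSF likewise gave no call by either tool, with 0.0843% of all genes called by edgeR. Here 6 of 36 members had lower estimates, against 50.4% of genes, and the median was 0.12. At an unadjusted p under 0.05, 6 were higher and 0 lower, against 5.51% and 4.33% of genes. Cplx2 had 1171, 1327 and 1447 CPM in scrambled mice (0.33 ± 0.12, adjusted p = 0.330). Bsn, the active zone scaffold bassoon, had 92.4, 131.2 and 165.7 in YAC128 aCSF and 90.3, 166.3 and 276.2 in scrambled mice (0.39 ± 0.14, adjusted p = 0.351). Syt1 had 418.8, 490.7 and 661.0 in scrambled mice (0.31 ± 0.11, adjusted p = 0.367). All 8 scrambled mice exceeded the aCSF median for Cplx2 and Syt1, and 7 did for Bsn, with ranges that overlapped.

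The other 3 of the 6 were Dnm1, Rims1 and Unc13a. Dnm1 had 363.0, 416.2 and 473.6 CPM in scrambled mice (0.25 ± 0.10, adjusted p = 0.383). Rims1, whose protein binds Rab3, had 38.1, 46.1 and 77.0 in YAC128 aCSF and 45.4, 61.9 and 107.5 in scrambled mice (0.41 ± 0.17, adjusted p = 0.442). Unc13a, the priming factor Munc13-1, had 118.0, 151.1 and 177.4 in YAC128 aCSF and 125.1, 174.0 and 219.0 in scrambled mice (0.21 ± 0.10, adjusted p = 0.485). The groups overlapped for all 3. In WT and AON12.1 mice the medians were 149.0 and 158.7 for Bsn, 405.1 and 363.0 for Dnm1, 51.4 and 57.4 for Rims1, and 158.5 and 170.2 for Unc13a. Estimates here were higher for 6 of 6 cortical markers (median 0.76), 5 of 6 pan-neuronal markers (2 at an unadjusted p under 0.05, median 0.10) and 13 of 15 projection neuron markers (median 0.14), and 1 of 6 microglia markers was called higher. Pan-neuronal sums were 3015 to 3489 CPM in YAC128 aCSF, where replicate 8 alone exceeded 3208, and 3248 to 3739 in scrambled mice. Their part in the members' values was not tested. With the cortical score as a covariate the members' median was -0.01 and the count of 6 was 2. Without scrambled replicate 5 these were 0.06 and 3, and without YAC128 aCSF replicate 8 0.16 and 12. The count of 0 lower was 1 without YAC128 aCSF replicate 1, 3, 4 or 8 or scrambled replicate 8, and 2 without scrambled replicate 4.

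Between AON12.1 and WT, 2 members were higher and 5 lower at an unadjusted p under 0.05, against 7.39% and 7.09% of genes, and Sncb alone passed the adjustment. Vamp1, Rimbp2, Erc2, Sh3gl2 and, below, Syt4 are named because of these values, after they were seen. Vamp1 had 64.8, 94.8 and 128.7 CPM in WT and 40.5, 68.7 and 82.6 in AON12.1 mice (-0.62 ± 0.18, adjusted p = 0.107). Rimbp2 had 82.7, 111.8 and 146.4 in WT and 127.2, 151.8 and 162.6 in AON12.1 mice (0.38 ± 0.12, adjusted p = 0.143). All 8 AON12.1 mice lay below the WT median for Vamp1 and above it for Rimbp2, with ranges that overlapped. Rph3a was at -0.33 ± 0.12, the active zone scaffold Erc2 at 0.33 ± 0.14, Rab3a at -0.21 ± 0.10 and the endophilin Sh3gl2 at -0.28 ± 0.14. Over all 36 the median was -0.09, with 25 of 36 lower, against 48.4% of genes. Rab3 and active zone genes had higher estimates in 7 of 9 and SNARE and fusion genes lower ones in 8 of 9. The count of 5 lower was 3 without WT replicate 3, 5 or 8 or AON12.1 replicate 3 or 4. With 1 mouse left out it reached at most 7, as without WT replicate 1. The count of 2 higher was 1 without WT replicate 6 or AON12.1 replicate 1 or 4. Projection neuron markers had higher estimates in 12 of 15 (median 0.16), and pan-neuronal ones are given above with Sncb.

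Between scrambled and WT neither tool made a call, with 0.169% of all genes called by edgeR. The median was -0.03, with 20 of 36 lower, against 48.5% of genes. Bsn (0.34 ± 0.14) and Erc2 (0.32 ± 0.14) were higher, and Rims2 (-0.33 ± 0.14) and the synaptotagmin Syt4 (-0.21 ± 0.10) lower, at an unadjusted p under 0.05, as were 4.79% and 5.01% of genes. The count of 2 higher was 5 without WT replicate 8 or scrambled replicate 7, 4 without WT replicate 1 or scrambled replicate 4, and 1 without WT replicate 6 or scrambled replicate 5. The count of 2 lower was 6 without scrambled replicate 5, 4 without WT replicate 6 or scrambled replicate 4, and 1 without WT replicate 7 or scrambled replicate 1 or 6. The median ran from -0.07 to 0.01 with 1 mouse left out. Estimates were higher for 5 of 6 cortical markers and lower for 5 of 6 pan-neuronal and 13 of 15 projection neuron markers, and their part was not tested.

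Release genes also varied with the no-feature share of the library. Within groups, the change of each gene per 10 percentage points of share was tested by edgeR. Of 36 members 2 rose and 10 fell, 12 in all, where 14.6% of all genes were called, 9.49% higher and 5.08% lower. Estimates were negative for 29 of 36, against 53.7% of genes, with a median of -0.14 against -0.02. By role, 5 of 9 SNARE and fusion genes, 3 of 8 vesicle membrane genes and 1 of 4 endocytosis genes fell. Of 9 Rab3 and active zone genes 2 rose and 1 fell, and of 6 synaptotagmin and rabphilin genes 0 were called.

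Pclo, the large active zone scaffold piccolo, had 50.2, 92.7 and 153.7 CPM in 22 libraries with a share up to 25% and 95.7, 130.4 and 196.2 in the 10 others. It rose by 0.74 ± 0.09 on the log2 scale per 10 points (adjusted p = 9.92e-08). Its 3 highest libraries were AON12.1 replicate 4, WT replicate 1 and AON12.1 replicate 3, the ones with shares of 33.7%, 30.2% and 33.3%. Rims2, a RIM scaffold, had 46.0, 68.1 and 87.3 in the low-share libraries and 56.8, 84.7 and 115.3 in the others, and rose by 0.41 ± 0.09 (adjusted p = 0.000777). Both were called in 32 of 32 fits that left out 1 library.

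Sv2b, a vesicle glycoprotein, had 30.8, 78.1 and 156.2 CPM at shares up to 25% and 39.5, 44.9 and 68.2 above, and fell by 0.70 ± 0.16 per 10 points (adjusted p = 0.00243). Low-share libraries held its high values and also low ones. Snap25 had 435.0, 523.3 and 672.0 in low-share and 356.7, 419.6 and 539.3 in high-share libraries, and fell by 0.31 ± 0.08 (adjusted p = 0.00416). Cplx1 had 445.5, 588.7 and 728.0 at low and 409.1, 473.7 and 686.0 at high share, and fell by 0.26 ± 0.07 (adjusted p = 0.00530). For Snap25 and Cplx1 the ranges overlapped and the medians were lower at high share.

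The other genes that fell had slopes of -0.35 ± 0.09 (Syp), -0.21 ± 0.07 (Syngr1, synaptogyrin 1), -0.24 ± 0.06 (Rab3a) and -0.25 ± 0.07 (Sncb) per 10 points. Slopes were -0.49 ± 0.17 for Stx1a, -0.22 ± 0.07 for Napb and -0.31 ± 0.09 for amphiphysin (Amph), which recruits dynamin. Sncb, Rab3a, Cplx1 and Syp, 4 of the 7 genes with a low genotype p, were among those that fell with the share. Over all 36 members 10 fell, as did 5.08% of all genes. The 7 were picked by p in these same libraries, and whether their overlap exceeds that base was not tested. The share averaged 19.53% in WT and 25.65% in YAC128 aCSF mice, so the overlap cannot tell genotype and share apart. Synaptotagmin and rabphilin genes ran from -0.13 (Syt11) to 0.14 (Syt7). The count of 10 was 5 without AON12.1 replicate 4 and 6 without YAC128 aCSF replicate 8.

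By group, in the order WT, YAC128 aCSF, AON12.1 and scrambled, Pclo had medians of 98.3, 114.9, 89.8 and 102.0 CPM and Rims2 80.3, 73.7, 68.1 and 59.3. Sv2b had 59.3, 48.1, 58.3 and 78.1, and Stx1a 62.8, 59.2, 79.1 and 72.8. Snap25 had 520.3, 448.7, 502.7 and 517.2, and Napb 610.5, 542.2, 548.4 and 607.8. None of these genes was called between groups. Syngr1 had 402.4, 386.2, 379.1 and 378.9, and Amph 95.3, 81.0, 72.2 and 97.3.

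**Figure D4:**
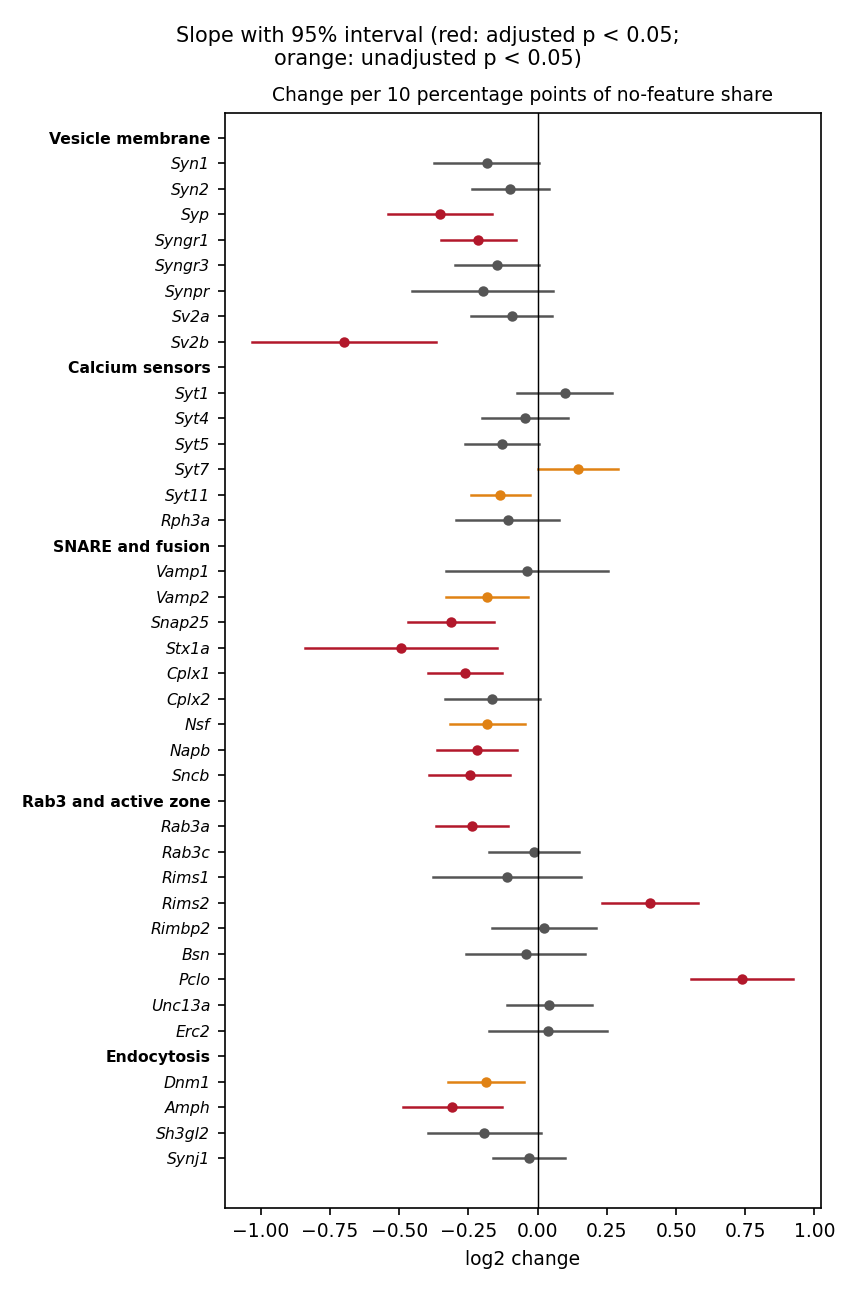
Log2 change per 10 percentage points of no-feature share, with its 95% interval, for each of 36 genes by role; red marks an adjusted p under 0.05 and orange an unadjusted p under 0.05. Pclo (0.74) and Rims2 (0.41) are red to the right of 0 and 10 genes are red to the left, down to Sv2b at -0.70.

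**Figure D5:**
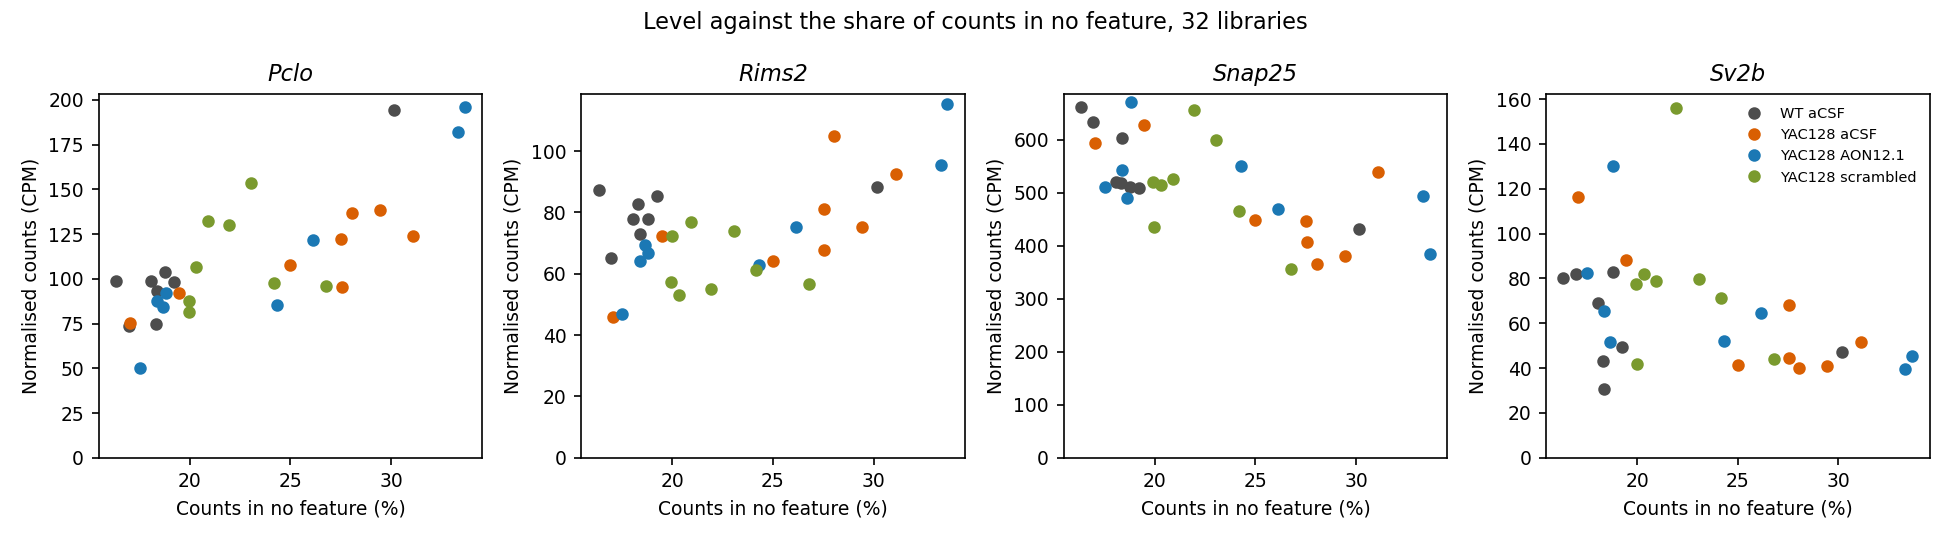
CPM of Pclo, Rims2, Snap25 and Sv2b against the no-feature share in percent, 1 point per library, coloured by group. Pclo is highest in 3 libraries with shares of 33.7%, 30.2% and 33.3%, and Snap25 and Sv2b have lower medians above 25% (419.6 and 44.9) than up to it (523.3 and 78.1).

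Of 6 cortical markers tested, 3 were called lower with the share, as were 5.08% of all genes. Their slopes were -1.80 ± 0.38 for Slc17a7, a vesicular glutamate transporter, -2.02 ± 0.40 for Neurod2 and -1.43 ± 0.39 for Tbr1. Slopes were positive for 2 of the 6, up to 0.23, with 0 called higher. In other lists, 1 of 6 pan-neuronal, 2 of 6 microglia, 1 of 8 interneuron and 1 of 8 astrocyte markers were called lower. Of 15 projection neuron markers 1 was called higher. With the cortical score as a covariate 0 members were called lower and 3 higher, Pclo, Rims2 and Syt7. The share of all genes called in that fit was not taken. The part of cortical tissue in the members' slopes was not tested. Genomic span, examined after the slopes were seen, had a median of 417.3 kb in the 2 members that rose, 29.8 kb in the 10 that fell and 66.8 kb in the other 24 (GENCODE models on GRCm38). Over all genes it was 46.6 kb for those called higher, 14.7 kb for those called lower and 24.6 kb for all tested. Spearman's correlation of slope with span was 0.22 over all genes and 0.37 over the 36 members tested. Erc2 (856.1 kb), Rims1 (519.7 kb), Syt1 (513.3 kb) and Sh3gl2 (434.1 kb) were longer than Pclo (348.5 kb) and not called. Amph (202.7 kb) and Sv2b (194.4 kb) fell.

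RefSeq promoters of GRCm38.p6, of the same length as that of Sncb, were found for 30 of 37 members, 40 promoters in all. Syngr3, Syt4, Syt5, Syt7, Vamp2, Snap25 and Rims2 had no entry. Pclo (chr5:14514668-14514967, plus strand) is shown as a gene that rose with the share and Cplx1 (chr5:108549978-108550277, minus strand) as one that fell. Syn1 (chrX:20920869-20921168, minus strand) is shown because it held 2 of the other motifs searched. Capitals mark matches on either strand.

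Pclo: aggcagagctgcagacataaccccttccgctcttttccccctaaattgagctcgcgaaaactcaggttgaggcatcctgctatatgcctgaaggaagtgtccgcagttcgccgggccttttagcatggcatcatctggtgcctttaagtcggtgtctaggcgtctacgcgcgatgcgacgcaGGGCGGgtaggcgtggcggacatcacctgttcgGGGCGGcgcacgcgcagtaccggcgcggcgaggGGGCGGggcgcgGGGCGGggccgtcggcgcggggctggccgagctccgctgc

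Cplx1: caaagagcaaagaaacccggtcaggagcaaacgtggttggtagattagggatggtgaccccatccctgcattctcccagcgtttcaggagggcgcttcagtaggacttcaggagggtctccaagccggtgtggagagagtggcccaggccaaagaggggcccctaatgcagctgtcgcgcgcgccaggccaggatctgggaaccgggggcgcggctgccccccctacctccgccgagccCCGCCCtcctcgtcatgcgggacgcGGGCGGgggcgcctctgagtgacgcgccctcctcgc

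Syn1: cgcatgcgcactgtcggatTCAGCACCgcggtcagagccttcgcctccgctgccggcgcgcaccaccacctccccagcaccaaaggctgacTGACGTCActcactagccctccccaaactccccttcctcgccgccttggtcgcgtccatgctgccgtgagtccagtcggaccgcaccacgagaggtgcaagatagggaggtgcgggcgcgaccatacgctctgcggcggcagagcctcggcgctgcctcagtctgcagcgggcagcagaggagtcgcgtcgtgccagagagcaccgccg

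The GC box GGGCGG stood in 57.5% of the members' promoters and 63.9% of 10651 promoters of tested genes, and in Sncb, Pclo and Cplx1 alike. The cAMP response element TGACGTCA stood in 5% against 3.2%, in Syn1 and Sh3gl2. The left part of the RE1 element, TCAGCACC, which overlaps the full core, stood in 5% against 1.68%, in Syn1 and Unc13a. The full RE1 core stood in 0 of 40, against 0.0469%.

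Of 78 other presynaptic genes listed, 72 were tested and edgeR called 0 in each of the 6 group comparisons, where it called from 0.0749% of all genes (genotype) to 0.562% (AON12.1 against WT). For genotype 8 were lower and 3 higher at an unadjusted p under 0.05, against 5.76% and 6.79% of all genes. Their genotype median was -0.09, with 50 of 72 lower, against 50.7% of all genes. Across the 6 comparisons 2 to 6 of 72 were higher and 1 to 10 lower at an unadjusted p under 0.05. Of all genes 3.39 to 7.39% were higher and 3.86 to 7.09% lower. Genotype values were -0.27 ± 0.13 for Sv2c, an SV2 form enriched in basal ganglia, -0.19 ± 0.11 for Slc32a1, the vesicular GABA transporter, and -0.40 ± 0.58 for Slc17a7.

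With the no-feature share, 6 of the 72 rose and 10 fell, where 9.49% of all genes were called higher and 5.08% lower. Itsn2, an endocytic scaffold, rose by 0.61 ± 0.10 and Tspoap1, a RIM-binding protein, by 0.49 ± 0.08, while the slope of Ap2m1, a clathrin adaptor subunit, was -0.29 ± 0.06.

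The biological coefficient of variation, the spread between mice beyond counting error, had a median of 0.146 over the members and 0.141 over all tested genes. It was lowest for Syt11 (0.101) and highest for Sv2b (0.329), Stx1a (0.315) and Pclo (0.266). In counts simulated for the genotype comparison over 10679 genes, 2% of genes changed by 0.25 on the log2 scale were called, 42% at 0.5, 80% at 1 and 98% at 2. The changed genes were drawn at random from all tested genes. The median SE for genotype was 0.110 over the members and 0.159 over all genes, so these rates are not those of the members. Exons of 13 members overlap another gene in the GRCm38 models, such as Rab3a with Mpv17l2 and Syp with Gm14703. The overlap is with the opposite strand in all but Bsn, which overlaps Gm47303 on its own strand. Whether the counting used strand is not given, so the counts of these members are uncertain to that extent.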

How the data were processed

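Counts of reads per gene were used as the authors deposited them, 1 file per library, as whole numbers that are not normalised. The submitters' processing notes name FastQC, cutadapt 2.10, STAR 2.7.5a, HTSeq 0.12.4 and the GRCm39 build. Libraries were made from 100 ng of RNA with a modified mcSCRB-seq protocol, per the labels. Collapse by molecular identifier and use of strand are not given in the sources used here. Each file has 55420 lines; its 5 HTSeq summary lines were left out of library sizes and of the tests, and the no-feature line held 22.8% of counts on average.

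Genes were filtered by filterByExpr (minimum count 10, minimum total 15). All 32 libraries entered a TMM-normalised quasi-likelihood fit in edgeR 4.0.16 (R 4.3.3), with Benjamini-Hochberg adjustment over 10679 genes and calls at an adjusted p under 0.05. The share slope came from a fit with group and share. DESeq2 1.42.0, limma 3.58.1, other filters and scalings, covariates, subsets and leaving out each library were alternatives. The fits were tested on simulated data.

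The members and lists were chosen with earlier results of these data known. Values by group were planned for members with an unadjusted p under 0.05 in the first 4 comparisons, for called members, and for the smallest genotype p of each role, and for 6 other presynaptic genes and at most 4 called ones per test. Some of these are not reported here. Gene models and promoters are of GRCm38, so no gene coordinates on GRCm39 are given.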

Additional observations from a re-analysis of the deposited data

Results flagged for a closer look

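In each group of 8 libraries, a level was singled out where its gap to the next library, as a share of the group's range, exceeded Dixon's critical value at 95%. Chance alone flags about 1 in 20 groups. Of 144 gene and group pairs, 15 were singled out, 6 of them in YAC128 scrambled replicate 5, where Syn1 was at 1006 CPM (next 623.2), Sv2b at 156.2 (next 82.0), Syt7 at 592.4 (next 446.1), Stx1a at 226.2 (next 91.1), Rims1 at 107.5 (next 70.3) and Synj1 at 506.1 (next 377.7). The same library had the highest cortical marker sum, 1317.

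YAC128 aCSF replicate 8, with the lowest no-feature share of its group, was high for Nsf at 676.7 (next 549.5), Rims1 at 76.96 (next 54.0), Erc2 at 122.0 (next 92.4) and Synj1 at 447.7 (next 391.6). YAC128 AON12.1 replicate 1 was high for Rims1 at 92.2 (next 62.2) and had a cortical marker sum of 624.3 (next 323.3). WT replicate 1, with a no-feature share of 30.2%, was high for Pclo at 194.3 (next 103.7) and low for Syt11 at 1353 (next 1522). YAC128 AON12.1 replicate 4, with a share of 33.7%, was low for Syngr1 at 237.6 (next 348.0), and YAC128 scrambled replicate 3 was low for Syt4 at 108.4 (next 159.5).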

How the results depend on the processing

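No paired analysis was possible because the labels give only animal numbers, which pair no mice across groups. The counts of called members kept their value in the genotype, scrambled against aCSF and scrambled against WT comparisons under each alternative run. AON12.1 against scrambled had 1 called member with DESeq2, and 0 to 1 when 1 library was left out (1 without AON12.1 replicate 1). AON12.1 against aCSF had 2 within animal numbers that begin with 18, Stx1a (0.96) and Sv2b (1.12), from 2 AON12.1 and 4 aCSF libraries. These were the members with the highest coefficients of variation, and both AON12.1 libraries, replicates 1 and 2, stood apart as given above. AON12.1 against WT had 0 with shares of at most 25% only and 0 within numbers that begin with 18, where Sncb was at -0.32. The test for any difference had 0 with the share as a covariate, with shares of at most 25%, and within numbers that begin with 18 or with 19, and 0 to 1 with 1 library left out. The slope on the share had 0 members called lower with the cortical score as a covariate, 0 higher and 0 lower within numbers that begin with 18, and 1 higher and 2 lower within those that begin with 19. Leaving out 1 library gave 5 to 12 called lower. Slopes changed sign for Stx1a with the cortical score (0.12) and, within numbers that begin with 18, for Syp (0.0368) and Amph (0.13). The cause of these changes was not tested, and the subsets hold fewer libraries. The share of all genes called was not taken in these alternative fits. Their counts of members therefore cannot be set against all genes. The set without WT replicate 1, YAC128 aCSF replicate 4, AON12.1 replicate 2 and scrambled replicate 5 and the alternatives for the test of any difference were chosen after seeing the data. DESeq2 gave no adjusted p in 10 cases. At these depths differences near 0.25 on the log2 scale were rarely detectable.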
